A study of Homo sapiens with 12 samples.

Results

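The comparison described here sets the human hepatocellular carcinoma line Huh7 grown by the Inject-Embed method against the same line grown flat, across all genes. It rests on the 4 libraries of those groups, 2 per group, chosen by the culture and line named in the columns of the deposited count table, out of 12 libraries in the series. Huh7 is an established wild-type liver tumour line that keeps part of the hepatocyte expression programme. All 4 libraries came from that one line in DMEM with fetal bovine serum. The flat cells, called 2D in the labels, were collected on day 2. For Inject-Embed, 4000 cells per well were placed with a pipette tip inside a set plug of diluted Matrigel and collected between day 6 and day 8. Days in culture, the number of cells seeded and the gel therefore changed together and cannot be told apart. The other libraries used below are 2 of Huh7 Mix-Embed, in which 20000 cells per well were stirred into Matrigel and collected over the same days, and 4 of the wild-type line HLF, flat on day 2 or Inject-Embed from 2000 cells per well between day 6 and day 8. The remaining 2, of HLF in Mix-Embed from 10000 cells per well over the same days, entered the fit, which pools the spread of all groups, and are compared with nothing here.

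Matrigel is a gel of basement membrane proteins secreted by a mouse tumour, and cells embedded in it grow as rounded clusters instead of a sheet. Hepatocytes make most proteins of blood plasma, handle metals, sterols and drugs, and raise a set of acute phase proteins when interleukin 6 acts on them through the receptor chain gp130 and the factor STAT3. Cells short of oxygen stabilise the HIF factors, which switch on glycolytic, angiogenic and mitophagy genes, and cells short of sterol release the SREBP factors, which switch on lipid synthesis.

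The 4 libraries held between 12325877 and 16041906 counts each, and the Inject-Embed pair was the shallower. Levels are given as CPM, counts scaled to a common depth, first for the pair of flat libraries and then for the pair of Inject-Embed libraries. A log2 fold change is Inject-Embed over flat, with the standard error (SE) that follows from the F statistic of the edgeR test and a p adjusted over all 19342 genes tested. A gene is said to have risen or fallen where that p was under 0.05. For genes with few counts in one group, the SE so derived is smaller than counting error alone and understates the uncertainty. Mitochondrial ribosomal RNA took 0.315% and 0.306% of the counts in flat culture and 0.487% and 0.477% in Inject-Embed, and its part in the results below was not tested. RNA was taken from whole wells, so fewer cells of a kind and less RNA per cell cannot be told apart.

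Hepatocyte markers were abundant in both cultures. Of 16 hepatocyte markers, 14 were tested, 4 rose and 8 fell, and their summed level went from 49134 and 47200.0 CPM to 37808 and 39208 CPM. Only 4 fell under limma on log2(FPKM + 0.1). At 2-fold or more 2 markers rose and 0 fell. Much of the fall in the sum was that of AFP, a fetal plasma protein. It averaged 25044 CPM in flat culture and 19479 CPM in Inject-Embed. Endothelial markers were near 0. The endothelial genes CDH5, KDR, TEK, CLEC4G, LYVE1 and ERG had 0 counts in all 4 libraries, and of the 3 endothelial markers tested 0 were called by edgeR or DESeq2 and 0 had an unadjusted p under 0.05. Their summed level was 11.3 and 13.8 CPM in flat culture and 12.8 and 13.7 in the gel. Of 12 leukocyte markers 3 were tested, and LYZ, the lysozyme gene, alone fell among them, from 5025 and 4721 counts to 3082 and 2752 (0 fell under limma on log2(FPKM + 0.1)). The list's summed level was 337 and 321 CPM in flat culture and 236 and 237 in the gel, CD163 and MS4A1 had 0 counts throughout and PTPRC had at most 2. Among 11 fibroblast and stellate markers tested 5 fell, and the summed level of the list went from 335 and 329 CPM to 188 and 187. DCN and LUM had at most 3 counts in any of the 4 libraries. Cholangiocyte markers moved the other way, with 5 rising and 1 falling of 9 tested and a summed level of 690.2 and 752 CPM in flat culture against 811 and 782 in the gel. KRT7 stayed at 0 counts in all 4, and 3 of the markers rose without Inject-Embed replicate 1 or under limma on log2(FPKM + 0.1).

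Between the cultures 29.9% of the genes tested changed: 13.2% rose and 16.7% fell, 2552 and 3225 genes. Which direction held more genes depended on the fit, since under 5 of 14 alternatives slightly more genes rose than fell, for example 2952 against 2872 under library-total scaling. Most of the changes were small, since 3614 of the 5777 called genes (62.6%) moved by less than 1.5-fold and the median absolute log2 fold change of called genes was 0.46. At 2-fold or more 300 genes rose and 754 fell, and at 4-fold or more 114 rose and 189 fell. In 5757 of the called genes both libraries of one group lay above both of the other. Every called gene named below by the values of its libraries is among these 5757. Over all tested genes, called or not, the groups were apart in 5243 with Inject-Embed higher and in 6106 with it lower. Groups without overlap are therefore common with so few libraries, and a lack of overlap adds little to a call. Protein-coding genes were called in 36.8% of cases, against 29.9% over all genes. The lists below consist mostly of protein-coding genes, so 36.8% is the closer background for their shares. Genes of the mitochondrial chromosome were called most often among the chromosomes, with 25 higher and 4 lower of 34 tested (85.3%). Among its 13 protein-coding genes 7 rose and 3 fell, so most of the rises were of noncoding RNA. AFP, the fetal plasma protein alpha-fetoprotein, lost more CPM than any other called protein-coding gene. It was at 25782 and 24305 CPM in flat culture and 18904 and 20054 CPM in Inject-Embed, -0.36 ± 0.04 (adjusted p = 3.6e-10). This call was lost under limma on log2(FPKM + 0.1) with the change at -0.33 (adjusted p = 0.45, with a range of 1.4e-55 to 0.45 over the 14 alternatives). The median log2 fold change over all tested genes was -0.01, the background for the list medians below.

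**Figure D1:**
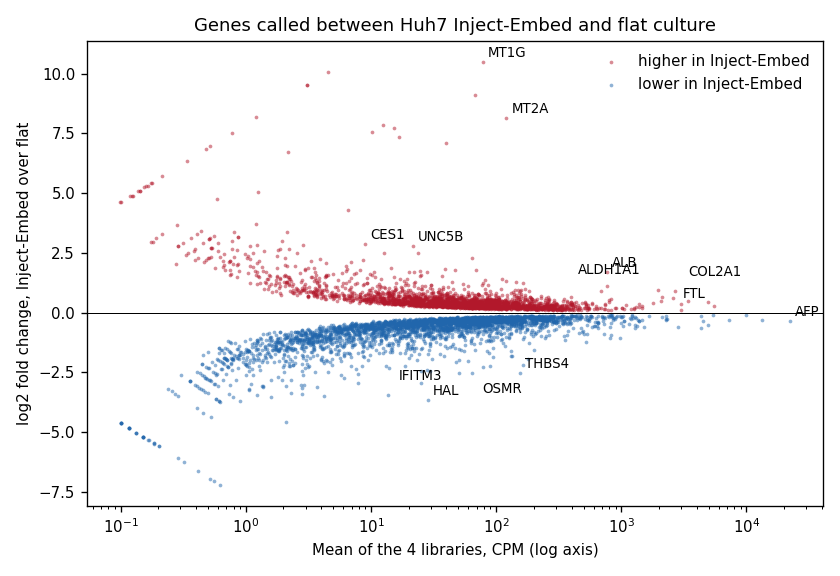
Each point is a gene called at an adjusted p under 0.05 whose groups did not overlap. It is placed by its mean CPM over the 4 libraries (horizontal log axis) and its log2 fold change, Inject-Embed over flat (vertical axis). Points are red where higher and blue where lower, and the 20 called genes with overlapping groups are not drawn. The metallothioneins MT1G and MT2A stand far above the cloud, and most called genes lie within 1 log2 unit of 0.

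The clearest rise belonged to the metallothioneins, small cysteine-rich proteins that bind zinc and copper and are switched on by the zinc-sensing factor MTF1. All 8 of the members tested rose, of 11 listed, against 13.2% of all genes, and 8 also stood higher than in Mix-Embed. MT1G and MT1M had at most 3 counts in either flat library and 0 CPM in HLF, flat or Inject-Embed. Members so low elsewhere could pass the count filter mainly through the gel libraries where they were high. The count of 8 was therefore partly fixed by the filter. The summed level of the 8 was 2.0 and 3.23 CPM in flat culture and 686 and 681 in Inject-Embed. Their median change on the log2 scale was 7.94, or 7.73 leaving out 3 members that had no more than 3 counts over one group. The members are near-identical copies on chromosome 16, so counts may be split unevenly between them. The sequences just upstream of 3 of the risen metallothioneins are shown because they carry several copies of the core letters that MTF1 is known to bind, beside the promoter of the zinc exporter SLC30A1, which also rose and carries a single copy. They are the 250 bases before the RefSeq start, on GRCh38.p14, 5′ to 3′ on the gene's strand, and capitals mark the letters TGCACNC or TGCGCNC on either strand.
MT2A, chr16:56608334-56608583, plus strand: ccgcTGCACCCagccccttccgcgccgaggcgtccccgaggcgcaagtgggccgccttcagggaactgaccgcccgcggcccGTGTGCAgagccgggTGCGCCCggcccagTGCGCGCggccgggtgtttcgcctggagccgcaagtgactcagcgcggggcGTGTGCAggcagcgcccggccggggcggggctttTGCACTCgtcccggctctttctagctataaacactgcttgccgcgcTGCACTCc
MT1X, chr16:56682220-56682469, plus strand: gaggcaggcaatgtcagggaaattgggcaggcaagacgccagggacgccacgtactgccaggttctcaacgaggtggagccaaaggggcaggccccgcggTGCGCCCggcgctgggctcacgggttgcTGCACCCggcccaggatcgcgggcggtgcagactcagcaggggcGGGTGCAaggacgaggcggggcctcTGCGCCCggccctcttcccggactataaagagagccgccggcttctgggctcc
MT1H, chr16:56669564-56669813, plus strand: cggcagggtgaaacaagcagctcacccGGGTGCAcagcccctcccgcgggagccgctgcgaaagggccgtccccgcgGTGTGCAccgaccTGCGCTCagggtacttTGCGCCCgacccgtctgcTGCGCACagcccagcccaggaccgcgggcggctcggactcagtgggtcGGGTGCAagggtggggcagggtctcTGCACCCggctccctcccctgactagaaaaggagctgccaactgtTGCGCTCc
SLC30A1, chr1:211579162-211579411, minus strand: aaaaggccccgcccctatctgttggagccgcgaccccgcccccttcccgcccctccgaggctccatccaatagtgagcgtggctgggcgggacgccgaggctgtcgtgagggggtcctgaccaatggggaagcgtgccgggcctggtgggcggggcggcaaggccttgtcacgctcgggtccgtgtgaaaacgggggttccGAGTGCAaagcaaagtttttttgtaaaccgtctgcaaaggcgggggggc
The stretch before MT2A held 7 matches, that before MT1H 8 and that before MT1X 4. Of 27303 RefSeq promoters of the same length, 24.7% held at least 1 match and 1.04% held 3 or more. The promoter table matched 3 of the 8 tested metallothioneins and 18 of the 21 tested zinc transporters and their regulator, 5 of which held a match. A match is a run of letters and not a measured binding site.

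MT2A (ENSG00000125148, chromosome 16, 56608199 to 56609497 on the plus strand of GRCh38) was read at 0.666 and 1.01 CPM in flat culture and 252 and 229 CPM in Inject-Embed, and the groups were far apart. Its log2 fold change was 8.15 ± 0.12 (adjusted p = 9.4e-40). MT1F had 0.467 and 0.673 CPM in flat culture and 77.9 and 80.6 CPM in Inject-Embed, 7.10 ± 0.20 (adjusted p = 7.7e-28). MT2A and MT1F had only 25 and 17 counts over the flat pair, so their SE understate the counting error. MT1H had 0 counts in both flat libraries and 7.57 and 10.5 CPM in Inject-Embed, at least 89.3-fold higher against a floor of 3 counts over the flat pair. MT1A, at 0.600 and 0.673 CPM in flat culture, reached 11 and 14.1 CPM, 4.28 ± 0.36 (adjusted p = 1.0e-12). In HLF, MT2A averaged 238 CPM flat and 219.9 CPM in Inject-Embed, and MT1F, MT1H and MT1A had no counts in either culture. Zinc transporters divided, with 4 rising and 3 falling of 21 tested, at a median of -0.14. Their share called of 33.3% was near the 29.9% over all genes and under the 36.8% of protein-coding genes. SLC30A1, the exporter whose promoter is printed above, was at 23 and 20.4 CPM in flat culture and 102 and 111 CPM in Inject-Embed, with the gel pair far above the flat pair, 2.29 ± 0.08 (adjusted p = 1.5e-25). SLC39A4, an importer of the cell surface, was at 3.33 and 3.84 CPM in flat culture and 11.7 and 10.5 CPM in Inject-Embed, 1.63 ± 0.24 (adjusted p = 5.0e-07). MTF1 itself had a log2 fold change of -0.14 ± 0.11 (adjusted p = 0.40).

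Iron genes split, with 6 rising and 7 falling of 22 tested. FTL, the ferritin light chain, was at 2025 and 2074 CPM in flat culture and 3083 and 3169 CPM in Inject-Embed, all of the gel values above the flat ones, 0.61 ± 0.04 (adjusted p = 6.5e-18). FTH1, the heavy chain, rose by 0.43 ± 0.05 on the log2 scale (adjusted p = 1.0e-09), and NCOA4, the receptor that delivers ferritin to lysosomes, by 0.42 ± 0.05 (adjusted p = 6.5e-10). SLC40A1, the iron exporter ferroportin, was at 57.7 and 61.1 CPM in flat culture and 20.9 and 22.1 CPM in Inject-Embed, with the gel pair well under the flat pair. Its log2 fold change was -1.47 ± 0.11 (adjusted p = 1.6e-14). TFR2, the second transferrin receptor of hepatocytes, went from 23.5 and 23.2 CPM to 12.9 and 13.4 CPM, -0.82 ± 0.14 (adjusted p = 1.4e-05). Only 4 of the list fell without 2D replicate 1. Ferritin genes have many pseudogenes and their counts are uncertain for that reason.

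Targets of NRF2, the factor that answers oxidants and electrophiles, rose: 15 of 24 tested were higher and 1 was lower, with a median of 0.34. The factor's own gene NFE2L2 was at 157 and 147 CPM in flat culture and 215 and 236 CPM in Inject-Embed (0.57 ± 0.06, adjusted p = 1.4e-10) and its inhibitor KEAP1 at 97.6 and 99.8 CPM in flat culture and 136 and 121 CPM in Inject-Embed (0.38 ± 0.07, adjusted p = 1.2e-05), with no overlap in either. GPX2, a glutathione peroxidase and a gene named by its rank among all genes, gave 16.8 and 17.4 CPM in flat culture and 63.2 and 57.6 CPM in Inject-Embed, 1.82 ± 0.12 (adjusted p = 1.3e-16). OSGIN1, a stress-induced growth inhibitor, was low in flat culture at 3.0 and 4.31 CPM and reached 13.3 and 11.9 CPM, 1.79 ± 0.20 (adjusted p = 1.4e-09). HMOX1, heme oxygenase, was at 18.9 and 20.6 CPM in flat culture and 37.1 and 36.4 CPM in Inject-Embed, which is a log2 fold change of 0.90 ± 0.11 (adjusted p = 2.0e-08). The groups did not overlap in any of these 3. Smaller rises were found for EPHX1, an epoxide hydrolase, 0.89 ± 0.07 (adjusted p = 5.0e-14), for GCLM, a subunit of the enzyme that starts glutathione synthesis, 0.36 ± 0.07 (adjusted p = 0.00012), and for TXNRD1, thioredoxin reductase, 0.28 ± 0.05 (adjusted p = 2.9e-05). SLC7A11, the cystine importer, alone fell, from 98.7 and 88.2 CPM to 65.8 and 68.7 CPM, -0.48 ± 0.07 (adjusted p = 1.8e-06). The letters TGACNNNGC, the core of the antioxidant response element, stood on either strand before 4 of the 12 risen members matched to a promoter. Of all tested members so matched 4 of 18 held them, against 11% of all promoters.

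Acute phase genes and parts of the interleukin 6 receptor pathway fell, with 17 of 21 tested lower, 1 higher and a median of -0.90. OSMR, the oncostatin M receptor that pairs with gp130 and one of the protein-coding genes with the largest fall (ENSG00000145623, chromosome 5, 38845858 to 38945596 on the plus strand of GRCh38), was at 114 and 103 CPM in flat culture and 18 and 20.1 CPM in Inject-Embed, with the gel pair far below the flat pair. Its log2 fold change was -2.52 ± 0.08 (adjusted p = 4.4e-27). IL6ST, which encodes gp130, was at 153 and 133 CPM in flat culture and 71.4 and 82.1 CPM in Inject-Embed and STAT3 at 128 and 128 CPM in flat culture and 73.6 and 67.2 CPM in Inject-Embed, each lower in the gel without overlap. Their log2 fold changes were -0.90 ± 0.07 (adjusted p = 5.2e-15) and -0.86 ± 0.06 (adjusted p = 3.8e-15). IL6R, the specific receptor chain for interleukin 6, was the list's one riser, at 28.9 and 26.9 CPM in flat culture and 45.9 and 46.2 CPM in Inject-Embed, 0.72 ± 0.09 (adjusted p = 1.2e-08). CEBPD, a factor induced by this pathway, fell from 117 and 142 CPM to 59 and 59.8 CPM, -1.13 ± 0.08 (adjusted p = 1.3e-14).

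The secreted products of that response fell too. LRG1, a leucine-rich plasma glycoprotein, was at 142 and 153 CPM in flat culture and 40.1 and 42.2 CPM in Inject-Embed, -1.84 ± 0.09 (adjusted p = 2.2e-20). SERPINA3, antichymotrypsin, had 23.9 and 22.3 CPM in flat culture and 4.39 and 5.02 CPM in Inject-Embed, -2.30 ± 0.19 (adjusted p = 5.1e-13). LBP, which presents bacterial lipopolysaccharide, went from 7.60 and 7.94 CPM to 0.984 and 0.340 CPM, -3.50 ± 0.42 (adjusted p = 6.3e-09). SAA2, a serum amyloid A protein, went from 3.93 and 4.17 CPM to 0.0757 and 0.255 CPM, -4.59 ± 0.67 (adjusted p = 4.6e-07), was left with 1 and 3 counts in the gel libraries, and shares sequence with SAA1. ORM1, orosomucoid, had 13.5 and 15.1 CPM in flat culture and 7.11 and 7.14 CPM in Inject-Embed, -1.0 ± 0.20 (adjusted p = 8.0e-05). The fibrinogen chains, made in equal amounts in the protein, moved unequally: FGA changed by -0.57 ± 0.05 (adjusted p = 1.9e-13), FGB by -0.34 ± 0.04 (adjusted p = 3.7e-08) and FGG by -0.07 ± 0.04 (adjusted p = 0.19), which did not pass. FGA was not called under limma on log2(FPKM + 0.1) (adjusted p = 0.095, with a range of 3.5e-44 to 0.095 over the 14 alternatives). The letters TTCNNNGAA, a STAT core, stood before 2 of 9 fallen members matched to a promoter (22.2%). They stood before 3 of all 13 tested members so matched (23.1%), against 6.78% of all promoters, so the letters did not single out the fallen members.

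**Figure D2:**
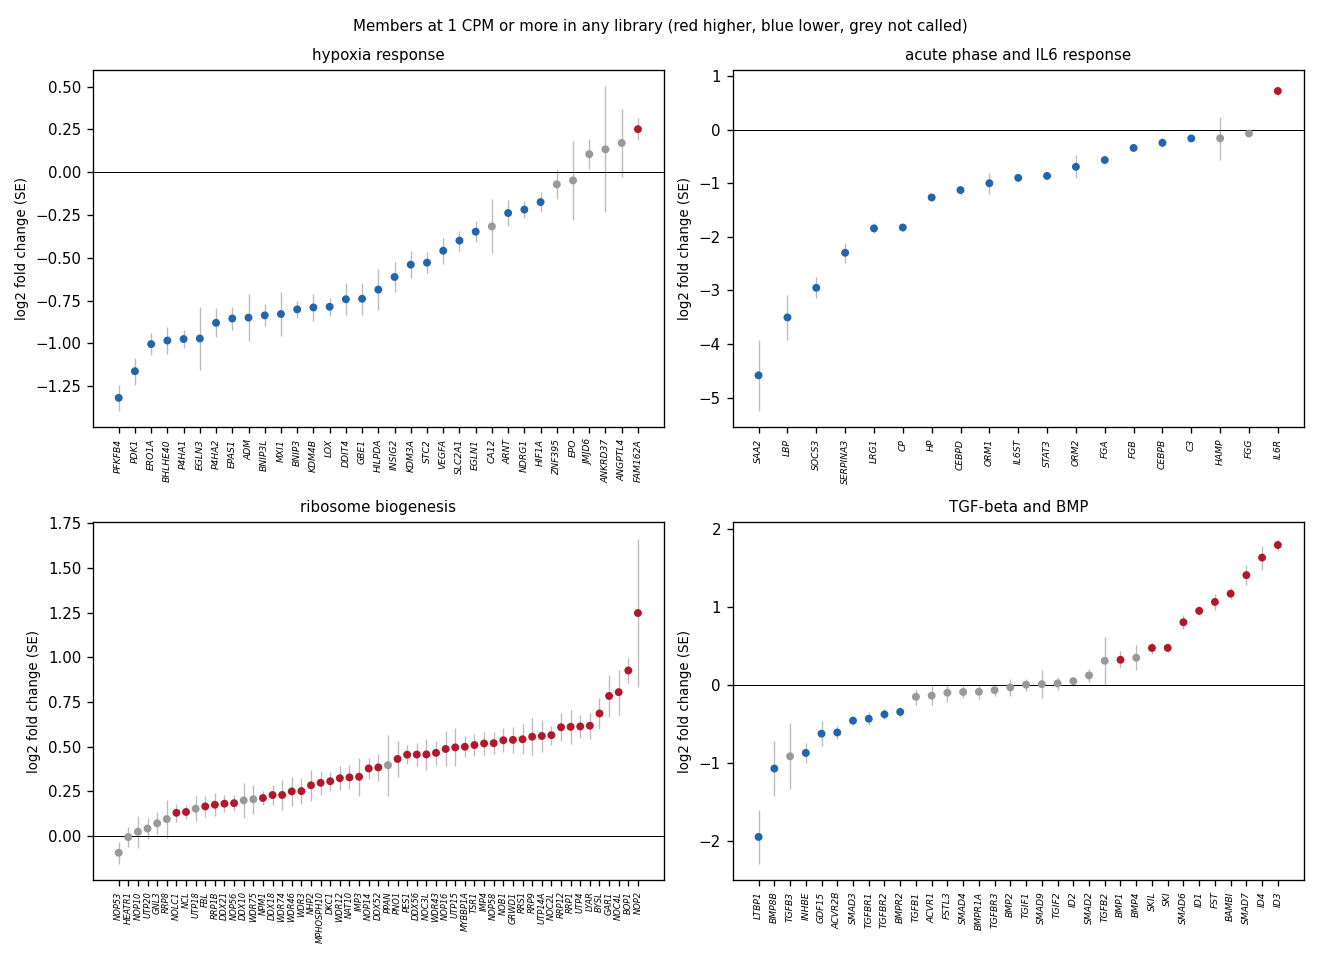
Log2 fold changes with their SE for the members of 4 lists that reached 1 CPM in any library, except 1 member not reported here, red where higher, blue where lower and grey where not called. Nearly all hypoxia and acute phase members lie below 0 and nearly all ribosome biogenesis members above it, while the TGF-beta and BMP list divides.

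Complement followed the same direction, with 16 of 26 tested lower, 3 higher and a median of -0.55. C5, the component that starts the membrane attack complex, was at 280.0 and 252 CPM in flat culture and 59.1 and 58.5 CPM in Inject-Embed, and both gel values were far under the flat ones. Its log2 fold change was -2.18 ± 0.07 (adjusted p = 6.5e-28). SERPING1, the inhibitor of C1, gave 171 and 174 CPM in flat culture and 61.9 and 67.9 CPM in Inject-Embed, -1.41 ± 0.07 (adjusted p = 4.7e-20). C3, the central and most abundant component here, fell slightly, from 1059 and 1054 CPM to 947 and 937 CPM, -0.17 ± 0.04 (adjusted p = 0.0015), and was not called under limma on log2(FPKM + 0.1) (adjusted p = 0.095, with a range of 0.00025 to 0.095 over the 14 alternatives). The rise of C1QBP, a mitochondrial protein despite its name, was 0.57 ± 0.05 (adjusted p = 2.6e-12).

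In coagulation and fibrinolysis 14 of 27 tested fell and 5 rose, with a median of -0.34, and 6 fell under limma on log2(FPKM + 0.1). PLG, plasminogen, went from 30.7 and 26.3 CPM to 11.4 and 9.78 CPM, -1.43 ± 0.15 (adjusted p = 2.1e-10), and F5, clotting factor V, from 119 and 110.3 CPM to 52.9 and 48.1 CPM, -1.18 ± 0.08 (adjusted p = 5.8e-15). TFPI, the tissue factor pathway inhibitor, was at 123 and 121 CPM in flat culture and 54.8 and 53.6 CPM in Inject-Embed, -1.17 ± 0.07 (adjusted p = 1.6e-18). Antithrombin went the other way: SERPINC1 had 15.8 and 19.9 CPM in flat culture and 28.8 and 27.8 CPM in Inject-Embed, 0.67 ± 0.13 (adjusted p = 9.3e-05).

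Plasma carriers gave 15 lower and 4 higher of 26 tested, with a median of -0.52. SERPINA1, the antitrypsin gene, was at 5745 and 5843 CPM in flat culture and 4064 and 4063 CPM in Inject-Embed, the groups apart, -0.51 ± 0.04 (adjusted p = 8.7e-16). HPX, hemopexin, which binds free heme, was at 139 and 147 CPM in flat culture and 78.5 and 75.8 CPM in Inject-Embed, -0.89 ± 0.07 (adjusted p = 7.4e-14). ITIH2, which links to hyaluronan, went from 1826 and 1819 CPM to 1171 and 1209 CPM, -0.61 ± 0.04 (adjusted p = 2.1e-15), but did not pass under limma on log2(FPKM + 0.1) (adjusted p = 0.10, with a range of 8.3e-55 to 0.10 over the 14 alternatives). Albumin rose, with ALB at 374 and 340.1 CPM in flat culture and 1128 and 1209 CPM in Inject-Embed, 1.71 ± 0.05 (adjusted p = 7.7e-28), and AHSG, fetuin A, rose from 652 and 671 CPM to 805 and 827 CPM, 0.30 ± 0.04 (adjusted p = 3.4e-07). Apolipoproteins divided, with 5 rising and 6 falling of 21 tested. APOA1 of high-density lipoprotein had 1529.7 and 1579 CPM in flat culture and 2072 and 1993 CPM in Inject-Embed, 0.39 ± 0.04 (adjusted p = 2.3e-09), whereas its partner APOA2 had 675 and 732 CPM in flat culture and 455 and 461 CPM in Inject-Embed, -0.62 ± 0.05 (adjusted p = 6.3e-14). The call for APOA1 was lost under limma on log2(FPKM + 0.1) (adjusted p = 0.58, with a range of 1.0e-21 to 0.58 over the 14 alternatives).

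Transcription factors of the liver moved in both directions, 7 higher and 12 lower of 28 tested. HNF4A, a central regulator of hepatocyte genes, was at 359 and 373 CPM in flat culture and 513 and 483 CPM in Inject-Embed, and the gel pair was above the flat pair, 0.44 ± 0.05 (adjusted p = 9.1e-10). NR1I2, the drug-sensing receptor PXR, went from 2.27 and 3.30 CPM to 10.1 and 9.86 CPM, 1.84 ± 0.25 (adjusted p = 1.2e-07). PROX1, a factor of early liver development, was at 267 and 255 CPM in flat culture and 133 and 134 CPM in Inject-Embed, both gel values below the flat pair, -0.97 ± 0.06 (adjusted p = 5.2e-17). ATF5, a stress-induced bZIP factor abundant in liver, was at 14.9 and 12.5 CPM in flat culture and 25.7 and 24.5 CPM in Inject-Embed, 0.87 ± 0.14 (adjusted p = 1.6e-06). The count that fell was 7 without 2D replicate 2 or without Inject-Embed replicate 2, and 6 under limma on log2(FPKM + 0.1).

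Enzymes of hepatocyte metabolism did not move as one. In the urea cycle and amino acid list 9 rose and 11 fell of 45 tested. CPS1, which feeds ammonia into the urea cycle, was at 26.4 and 26 CPM in flat culture and 64.7 and 62 CPM in Inject-Embed with no overlap, 1.27 ± 0.10 (adjusted p = 1.3e-13). ARG1, the arginase that ends the cycle, moved the other way, at 30.3 and 32.3 CPM in flat culture and 11.2 and 11.5 CPM in Inject-Embed, -1.46 ± 0.14 (adjusted p = 1.6e-11). BHMT, which recycles homocysteine, rose from 4.0 and 4.98 CPM to 8.70 and 9.27 CPM, 1.0 ± 0.24 (adjusted p = 0.00091). Cytochromes P450 gave 7 higher and 5 lower of 28 tested, conjugation enzymes 8 and 6 of 31 and bile acid genes 6 and 2 of 18. CYP1A1, which oxidises aromatic hydrocarbons, was at 10.7 and 12 CPM in flat culture and 38.1 and 37.7 CPM in Inject-Embed, 1.73 ± 0.14 (adjusted p = 5.4e-14). UGT2B7, a glucuronidating enzyme, reached 3.86 and 4.34 CPM from 1.07 and 1.48 CPM, 1.68 ± 0.28 (adjusted p = 5.4e-06). CES1, the liver carboxylesterase, was one of the protein-coding genes with the largest rise, at 1.87 and 2.42 CPM in flat culture and 15.7 and 15.8 CPM in Inject-Embed, 2.87 ± 0.22 (adjusted p = 2.9e-14). ABCC2, the canalicular exporter of conjugates, was at 49 and 44 CPM in flat culture and 109 and 112 CPM in Inject-Embed, both gel values above the flat pair, 1.24 ± 0.06 (adjusted p = 3.0e-20). ALDH1A1, a retinal dehydrogenase, gained more CPM than all called protein-coding genes but COL2A1 and MT-ATP6. It was at 1349 and 1359 CPM in flat culture and 2558 and 2607 CPM in Inject-Embed, 0.93 ± 0.04 (adjusted p = 1.1e-22).

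**Figure D3:**
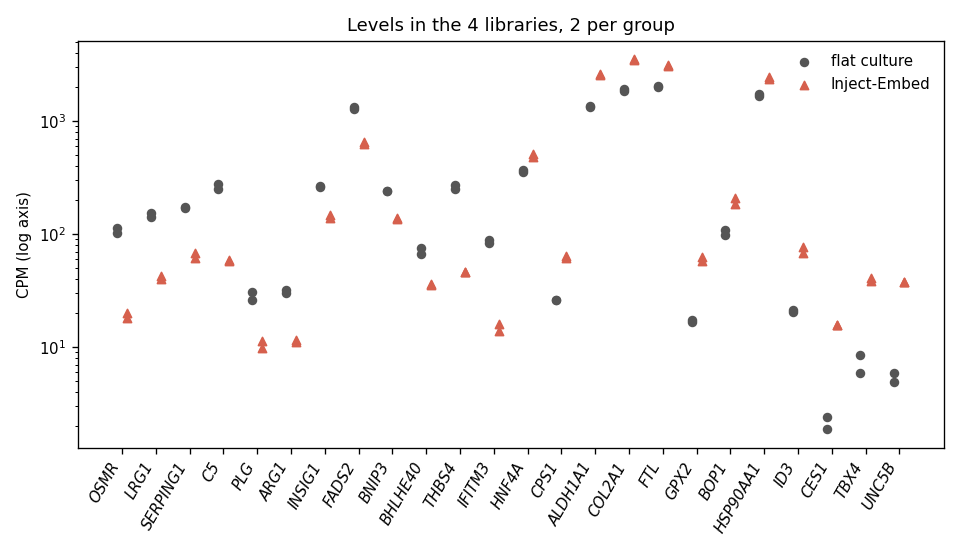
CPM on a log axis for 24 genes named in the text, flat libraries as grey circles and Inject-Embed libraries as red triangles. For each gene the 2 libraries of a group lie close together, from THBS4 and IFITM3 that are lower in the gel to UNC5B and CES1 that are higher. The groups do not overlap, which was a condition for a gene to be drawn.

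Sterol and fatty acid synthesis fell together. Of 23 genes of cholesterol synthesis 18 were lower and 1 higher, at a median of -0.32, and their summed level went from 7595 and 7480.1 CPM to 5769 and 5802. Of 23 genes for sensing, uptake and export of sterol 13 were lower and 4 higher, at a median of -0.29. INSIG1, which holds SREBP back when sterol is plentiful and is itself a target of it, was at 262 and 267 CPM in flat culture and 139 and 149 CPM in Inject-Embed, -0.88 ± 0.06 (adjusted p = 5.2e-17). Smaller falls were measured for FDFT1, squalene synthase, -0.62 ± 0.04 (adjusted p = 1.3e-15), for SQLE, squalene epoxidase, -0.45 ± 0.05 (adjusted p = 8.5e-10), and for SREBF2, which encodes SREBP2, -0.36 ± 0.05 (adjusted p = 4.1e-08).

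Fatty acid synthesis and desaturation gave 12 lower and 1 higher of 18 tested, at a median of -0.38. FADS2, the delta-6 desaturase, was at 1287 and 1348 CPM in flat culture and 650.0 and 629 CPM in Inject-Embed, lower in both gel libraries, -1.04 ± 0.05 (adjusted p = 1.5e-22). ELOVL6, which lengthens palmitate, had 131 and 129.9 CPM in flat culture and 74.6 and 72.2 CPM in Inject-Embed, -0.83 ± 0.07 (adjusted p = 8.0e-14). ACLY, which makes acetyl-CoA in the cytosol, fell less, -0.38 ± 0.04 (adjusted p = 1.2e-10). In the triglyceride list 8 fell and 3 rose of 22 tested. The coats of lipid droplets fell, PLIN2 from 223 and 219.8 CPM to 136 and 131 CPM, -0.73 ± 0.06 (adjusted p = 2.8e-14), while PLIN4 changed by -1.34 ± 0.18 (adjusted p = 5.2e-08) and PLIN5 by -2.24 ± 0.27 (adjusted p = 6.7e-09). DGAT1, which makes triglyceride, rose from 262 and 293 CPM to 429 and 406 CPM, 0.59 ± 0.05 (adjusted p = 5.5e-12). The sterol element letters TCACNCCAC stood before 0 of the 18 cholesterol synthesis genes matched to a promoter, 1 of 18 sterol-sensing genes (SREBF2) and 0 of 16 fatty acid genes, against 0.875% of all promoters. This says only that the letters are not in these windows.

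Hypoxia genes fell: 26 of 34 tested were lower and 1 was higher, at a median of -0.71. The summed level went from 3920.4 and 3827 CPM to 2556 and 2570.3. Promoters of BNIP3, which marks mitochondria for removal and fell, and of FAM162A, the list's one riser, are shown because both carry several copies of the letters that HIF is known to bind. They are the 250 bases before the RefSeq start on GRCh38.p14, and capitals mark ACGTG or GCGTG on either strand.
BNIP3, chr10:131981924-131982173, minus strand: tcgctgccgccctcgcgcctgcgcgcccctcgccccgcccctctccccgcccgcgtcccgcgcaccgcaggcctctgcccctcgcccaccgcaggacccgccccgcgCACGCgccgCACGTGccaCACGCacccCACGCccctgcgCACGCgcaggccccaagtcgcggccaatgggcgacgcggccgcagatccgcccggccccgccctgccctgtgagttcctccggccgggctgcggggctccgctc
FAM162A, chr3:122383932-122384181, plus strand: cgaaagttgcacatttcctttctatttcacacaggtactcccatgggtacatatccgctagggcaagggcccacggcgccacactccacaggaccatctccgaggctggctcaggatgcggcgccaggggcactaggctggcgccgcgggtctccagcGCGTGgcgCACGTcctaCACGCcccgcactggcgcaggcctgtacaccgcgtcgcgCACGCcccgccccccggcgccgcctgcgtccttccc
There were 5 matches before BNIP3, counting overlapping letters once, and 4 before FAM162A. Of 22 fallen members matched to a promoter, 16 held a match (72.7%), and of the tested members 21 of 28, against 43.1% of all promoters. The letters were thus present before members that moved in opposite directions.

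BNIP3 (ENSG00000176171, chromosome 10, 131966455 to 131982013 on the minus strand of GRCh38) was at 242 and 242 CPM in flat culture and 137 and 140.4 CPM in Inject-Embed, and neither gel library came near the flat pair. Its log2 fold change was -0.80 ± 0.05 (adjusted p = 4.5e-17). BHLHE40, a repressor induced by HIF, was at 66.8 and 75.1 CPM in flat culture and 36.5 and 35.3 CPM in Inject-Embed, -0.98 ± 0.08 (adjusted p = 7.7e-14). PDK1, which keeps pyruvate out of mitochondria, was at 119 and 118 CPM in flat culture and 53.9 and 51.9 CPM in Inject-Embed, the second largest fall of the list after PFKFB4, -1.16 ± 0.08 (adjusted p = 6.3e-16). EGLN3, a prolyl hydroxylase that marks HIF for destruction, had 14.9 and 16.8 CPM in flat culture and 7.64 and 8.50 CPM in Inject-Embed, -0.97 ± 0.18 (adjusted p = 4.1e-05). LOX, which crosslinks collagen, went from 628 and 614 CPM to 349.9 and 370.4 CPM, -0.79 ± 0.05 (adjusted p = 5.7e-16). VEGFA, the main angiogenic growth factor, was at 75.8 and 79.7 CPM in flat culture and 61 and 51.9 CPM in Inject-Embed and SLC2A1, a glucose transporter, at 153 and 155 CPM in flat culture and 118 and 115 CPM in Inject-Embed. Their falls were -0.46 ± 0.08 (adjusted p = 5.1e-06) and -0.40 ± 0.06 (adjusted p = 5.5e-07). EPAS1, which encodes HIF2 alpha, fell from 275 and 265 CPM to 142 and 157 CPM, -0.85 ± 0.07 (adjusted p = 1.1e-13). HIF1A changed by -0.17 ± 0.06 (adjusted p = 0.016) and was not called without 2D replicate 1 (adjusted p = 0.58, with a range of 0.00011 to 0.58 over the 14 alternatives). FAM162A, a mitochondrial protein, had 116 and 113 CPM in flat culture and 130.1 and 143 CPM in Inject-Embed, 0.25 ± 0.06 (adjusted p = 0.0018), and was not called without Inject-Embed replicate 2 (adjusted p = 0.074, with a range of 0.00041 to 0.074 over the 14 alternatives). CA9, a carbonic anhydrase often used as a hypoxia marker, was under 1 CPM in all 4 libraries and was not called (-1.03 ± 1.08, adjusted p = 0.53).

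Nuclear genes of mitochondrial respiration and translation rose. Of 51 nuclear genes of oxidative phosphorylation 30 were higher, with a median of 0.22. By edgeR and by DESeq2 0 were lower, and 0 were lower at an unadjusted p under 0.05. Of 45 genes of the mitochondrial ribosome 29 rose and 2 fell, with a median of 0.32. CYC1, cytochrome c1 of complex III, was at 201 and 231 CPM in flat culture and 313 and 289 CPM in Inject-Embed, 0.48 ± 0.06 (adjusted p = 5.3e-09). NDUFS6, a subunit of complex I, had 36.1 and 46.4 CPM in flat culture and 67.7 and 58.1 CPM in Inject-Embed, 0.61 ± 0.10 (adjusted p = 7.2e-06), and UQCRQ of complex III went from 48.3 and 53.4 CPM to 73.3 and 74.8 CPM, 0.54 ± 0.08 (adjusted p = 5.5e-07). The groups did not overlap in any of these 3. MRPL12, a mitochondrial ribosomal protein, rose by 0.51 ± 0.10 (adjusted p = 9.3e-05).

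The 13 protein-coding genes of the mitochondrial genome did not move together: 7 rose and 3 fell, at a median of 0.10. MT-ND1, a complex I subunit, was at 1591 and 1667 CPM in flat culture and 2549.9 and 2570.3 CPM in Inject-Embed and rose, 0.65 ± 0.04 (adjusted p = 6.7e-19). MT-ND3 had 424 and 544 CPM in flat culture and 900.3 and 899 CPM in Inject-Embed, 0.89 ± 0.06 (adjusted p = 5.2e-16), and MT-ATP6, a subunit of ATP synthase, 4194 and 4171 CPM in flat culture and 5731 and 5763 CPM in Inject-Embed, 0.46 ± 0.03 (adjusted p = 5.3e-16). MT-ND6 is read from the other strand and changed by -0.28 ± 0.05 (adjusted p = 2.0e-05), and no source used here says whether the counting used strand. The ribosomal RNAs rose, MT-RNR1 from 477 and 498 CPM to 1076 and 1014 CPM, 1.10 ± 0.05 (adjusted p = 9.7e-23), and MT-RNR2 by 0.49 ± 0.03 (adjusted p = 8.0e-16). The fall of MT-ND4, -0.09 ± 0.03 (adjusted p = 0.015), was lost under library-total scaling (adjusted p = 0.14, with a range of 0.00057 to 0.51 over the 14 alternatives) and under 7 other alternatives.

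Ribosome biogenesis genes rose, 45 of 55 tested, with a median of 0.38. By edgeR and by DESeq2 0 were lower, and 0 were lower at an unadjusted p under 0.05. BOP1, which processes the precursor of the large subunit's RNA (ENSG00000261236, chromosome 8, 144262102 to 144291370 on the minus strand of GRCh38), was at 98 and 109 CPM in flat culture and 209 and 184 CPM in Inject-Embed, higher in both gel libraries, 0.93 ± 0.07 (adjusted p = 1.9e-14). RRP12, which helps export both subunits, had 35.2 and 38.4 CPM in flat culture and 53.7 and 58.7 CPM in Inject-Embed, 0.61 ± 0.08 (adjusted p = 2.7e-08), and NOC4L, of small subunit assembly, 11.2 and 12.6 CPM in flat culture and 20.7 and 20.9 CPM in Inject-Embed, 0.81 ± 0.13 (adjusted p = 1.9e-06). Of 30 subunits and factors of RNA polymerases I and III 12 rose, for example POLR1B, the second largest subunit of polymerase I, from 70.6 and 68.9 CPM to 99.4 and 89.9 CPM, 0.44 ± 0.08 (adjusted p = 9.7e-06). Nucleotide synthesis gave 13 higher and 2 lower of 29. CTPS1, which makes CTP, was at 106 and 97 CPM in flat culture and 173 and 177 CPM in Inject-Embed, 0.79 ± 0.06 (adjusted p = 2.6e-14).

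The genes of the ribosome's own proteins did not move that way. Of 60 cytosolic ribosomal protein genes 6 rose and 14 fell. They were called in 33.3% of cases, near the 29.9% over all genes and under the 36.8% of protein-coding genes. Their median was -0.00, and 7 fell under limma on either log2 FPKM scale. RPL10 changed by -0.16 ± 0.04 (adjusted p = 0.0013), and EEF1A1, the elongation factor and one of the most abundant transcripts, went from 14839 and 14572 CPM to 11573 and 11974 CPM, -0.32 ± 0.03 (adjusted p = 4.4e-12). Both have many pseudogenes. Initiation and elongation factors gave 18 higher and 5 lower of 41. EIF6, which keeps new large subunits apart from small ones, was at 122 and 125 CPM in flat culture and 193 and 177 CPM in Inject-Embed, 0.58 ± 0.06 (adjusted p = 6.1e-11), and EIF5A at 484 and 520.3 CPM in flat culture and 681 and 634 CPM in Inject-Embed, 0.39 ± 0.05 (adjusted p = 4.4e-09).

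**Figure D4:**
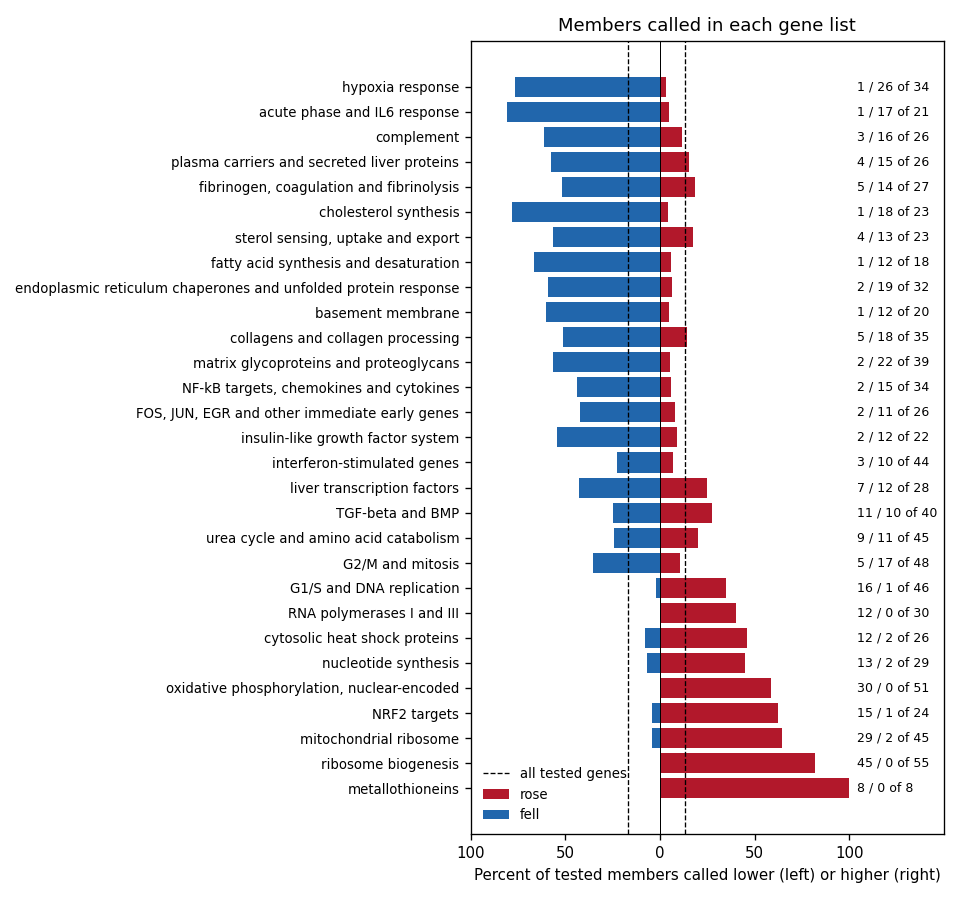
Share of the tested members of 29 gene lists called lower (blue, left) or higher (red, right) in Inject-Embed, with the counts written as higher / lower of tested. Dashed lines mark the shares over all tested genes, 16.7% lower and 13.2% higher. Among protein-coding genes, of which the lists mostly consist, 36.8% were called in either direction.

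Cell cycle lists moved by smaller counts. In the list for G1/S and DNA replication 16 of 46 rose and 1 fell, at a median of 0.14, and 10 rose without 2D replicate 1, Inject-Embed replicate 1 or Inject-Embed replicate 2. In the list for G2/M and mitosis 17 of 48 fell and 5 rose, at a median of -0.07. That count of 17 was 8 without Inject-Embed replicate 1, 10 without Inject-Embed replicate 2, 10 under library-total scaling, 10 with the Huh7 libraries alone, 9 with the 4 compared libraries alone and 11 under limma on log2(FPKM + 0.1). CDC25A, a phosphatase of entry into S phase, was at 78.5 and 84.8 CPM in flat culture and 132 and 128 CPM in Inject-Embed, 0.67 ± 0.07 (adjusted p = 7.4e-11). ORC6, of the origin recognition complex, had 84.5 and 78.6 CPM in flat culture and 119 and 113 CPM in Inject-Embed, 0.51 ± 0.07 (adjusted p = 4.2e-08), and E2F1, the factor of S phase genes, 91.6 and 105 CPM in flat culture and 136 and 122 CPM in Inject-Embed, 0.39 ± 0.07 (adjusted p = 2.7e-05). ECT2, which places the cleavage furrow, fell from 207 and 195 CPM to 139 and 155 CPM, -0.46 ± 0.06 (adjusted p = 1.9e-08). Replication-dependent histones gave 9 higher of 31 tested, at a median of 0.47. Their share called of 29.0% was near the 29.9% over all genes and under the 36.8% of protein-coding genes. H2BC12 was at 46.4 and 45.6 CPM in flat culture and 74.5 and 74.2 CPM in Inject-Embed, 0.69 ± 0.08 (adjusted p = 1.2e-09), and H1-2, a linker histone, at 11.3 and 10.8 CPM in flat culture and 15.3 and 16.8 CPM in Inject-Embed, 0.53 ± 0.13 (adjusted p = 0.00091). Most histone transcripts lack the poly-A tail on which these libraries were selected, and the copies are near-identical.

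Chaperones differed between the lists. Of 32 genes of the endoplasmic reticulum and its unfolded protein response 19 fell and 2 rose, at a median of -0.24. XBP1, a factor of that response, was at 729.5 and 733 CPM in flat culture and 502 and 505 CPM in Inject-Embed, -0.54 ± 0.04 (adjusted p = 9.6e-14). EDEM1, which sends misfolded glycoproteins to degradation, was at 119 and 110.3 CPM in flat culture and 63.9 and 62.7 CPM in Inject-Embed, -0.85 ± 0.07 (adjusted p = 4.8e-13). ERO1A, the oxidase that drives disulfide formation and also a hypoxia gene, fell from 169 and 152 CPM to 79.5 and 80.6 CPM, -1.0 ± 0.07 (adjusted p = 1.9e-16). Among 26 cytosolic and other heat shock genes 12 rose and 2 fell, at a median of 0.12. HSP90AA1, the inducible HSP90, was at 1740.4 and 1679.7 CPM in flat culture and 2378 and 2466 CPM in Inject-Embed, 0.50 ± 0.04 (adjusted p = 1.2e-14), and HSPA8, the constitutive HSP70, at 1346 and 1322 CPM in flat culture and 1593 and 1627 CPM in Inject-Embed, 0.27 ± 0.04 (adjusted p = 1.5e-07). SERPINH1, the collagen chaperone, rose from 194 and 212 CPM to 319 and 313 CPM, 0.64 ± 0.05 (adjusted p = 1.2e-13). HSPB1, a small heat shock protein, fell from 62.4 and 75.1 CPM to 37.8 and 36.2 CPM, -0.89 ± 0.08 (adjusted p = 3.2e-12).

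Matrix genes mostly fell. Basement membrane genes gave 12 lower and 1 higher of 20 tested, with a median of -0.62. The median was -0.79 leaving out 5 members that had no more than 3 counts over one group. LAMA5, the laminin alpha 5 chain, was at 314 and 347 CPM in flat culture and 168 and 146 CPM in Inject-Embed, with the gel pair under the flat pair, -1.07 ± 0.06 (adjusted p = 5.1e-19). AGRN, agrin, had 250.5 and 294 CPM in flat culture and 165 and 154 CPM in Inject-Embed, -0.77 ± 0.06 (adjusted p = 1.2e-14), and NID2, nidogen 2, 13.8 and 13.3 CPM in flat culture and 2.72 and 1.79 CPM in Inject-Embed, -2.57 ± 0.29 (adjusted p = 1.3e-09). COL4A5, a type IV collagen chain, fell from 42.7 and 40.3 CPM to 14.9 and 19.6 CPM, -1.28 ± 0.10 (adjusted p = 3.6e-14). COL4A1, the common type IV chain, had at most 1 count in any of the 4 libraries. LAMB1 had a log2 fold change of 0.05 ± 0.04 (adjusted p = 0.40).

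Among collagens and their processing enzymes 18 fell and 5 rose of 35 tested, with a median of -0.47, or -0.83 leaving out 7 such members. The largest gain was that of COL2A1, the collagen of cartilage (ENSG00000139219, chromosome 12, 47972965 to 48004554 on the minus strand of GRCh38). It was at 1842 and 1931 CPM in flat culture and 3555 and 3457 CPM in Inject-Embed, 0.89 ± 0.04 (adjusted p = 4.5e-22). It gained more CPM than any other called protein-coding gene. COL11A1, which builds fibrils together with type II collagen, went the opposite way, at 127 and 133 CPM in flat culture and 28.6 and 25.8 CPM in Inject-Embed, -2.26 ± 0.06 (adjusted p = 2.5e-29). COL9A3, of the type IX collagen on the same fibrils, also fell, -1.49 ± 0.14 (adjusted p = 1.1e-11). Matrix glycoproteins and proteoglycans gave 22 lower and 2 higher of 39, at a median of -0.54. THBS4, thrombospondin 4, was at 254 and 274 CPM in flat culture and 46.2 and 46 CPM in Inject-Embed, -2.52 ± 0.07 (adjusted p = 2.5e-29), and THBS1 at 38.5 and 36.7 CPM in flat culture and 10.8 and 7.99 CPM in Inject-Embed, -1.99 ± 0.11 (adjusted p = 1.7e-19). VCAN, the proteoglycan versican, went from 33.7 and 29.5 CPM to 9.76 and 7.06 CPM, -1.90 ± 0.14 (adjusted p = 1.4e-14). FN1, fibronectin, fell by a smaller factor from a high level, 5124 and 4909 CPM in flat culture and 3893 and 3915 CPM in Inject-Embed, -0.36 ± 0.03 (adjusted p = 1.3e-11).

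Receptors for matrix and the cytoskeleton changed gene by gene. Of 34 integrin and focal adhesion genes 6 rose and 13 fell. ITGA3, a laminin-binding integrin chain, was at 9.53 and 9.29 CPM in flat culture and 24.5 and 25.4 CPM in Inject-Embed, 1.41 ± 0.09 (adjusted p = 7.7e-17). ITGA2, a collagen-binding chain, moved the other way at 19.3 and 19.9 CPM in flat culture and 8.93 and 7.40 CPM in Inject-Embed, -1.26 ± 0.15 (adjusted p = 1.0e-08), and ITGB1, the shared beta chain, fell from 412 and 389.8 CPM to 297 and 320.1 CPM, -0.38 ± 0.04 (adjusted p = 3.2e-09). ZYX, zyxin of focal adhesions, rose by 0.75 ± 0.09 (adjusted p = 1.5e-09). Actin genes gave 11 higher and 15 lower of 44, and FLNA, filamin A, which crosslinks actin, was at 155 and 162 CPM in flat culture and 64.7 and 68.1 CPM in Inject-Embed, -1.26 ± 0.05 (adjusted p = 1.0e-24). ACTB, cytoplasmic actin, had a log2 fold change of 0.02 ± 0.03 (adjusted p = 0.72). Of 38 tubulins, kinesins and their partners 7 rose and 14 fell. TUBB2B, a tubulin of neurons, was at 29.3 and 32 CPM in flat culture and 7.04 and 5.95 CPM in Inject-Embed, -2.23 ± 0.16 (adjusted p = 1.1e-15), with MAP1B, a microtubule-binding protein, falling from 9.53 and 10.2 CPM to 1.06 and 2.21 CPM, -2.61 ± 0.22 (adjusted p = 3.3e-13).

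Epithelial genes divided as well. KRT8 was at 639.8 and 691 CPM in flat culture and 999 and 976 CPM in Inject-Embed and its usual partner KRT18 at 245 and 271 CPM in flat culture and 220.1 and 217 CPM in Inject-Embed, the first higher in the gel and the second lower. Their log2 fold changes were 0.57 ± 0.04 (adjusted p = 3.1e-16) and -0.24 ± 0.05 (adjusted p = 8.4e-05). Of 51 junction and polarity genes 6 rose and 16 fell. CDH17, a cadherin of liver tumours and intestine, was at 62 and 61.3 CPM in flat culture and 159 and 167 CPM in Inject-Embed, 1.40 ± 0.07 (adjusted p = 6.5e-20), while CDH1, E-cadherin, was at 129 and 136 CPM in flat culture and 87.3 and 90.9 CPM in Inject-Embed, -0.57 ± 0.07 (adjusted p = 4.5e-09). CEACAM1, a bile canaliculus adhesion protein, had 208 and 206 CPM in flat culture and 58.3 and 60.5 CPM in Inject-Embed, the gel pair far under the flat pair, -1.80 ± 0.07 (adjusted p = 7.6e-24).

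The TGF-beta and BMP list split 11 higher to 10 lower of 40 tested, and inhibitors of the pathway were among those that rose. ID3, a helix-loop-helix inhibitor induced by BMP, was at 20.6 and 21.4 CPM in flat culture and 77.3 and 68.4 CPM in Inject-Embed, 1.80 ± 0.08 (adjusted p = 5.5e-22). ID1 had 101 and 117 CPM in flat culture and 214 and 206 CPM in Inject-Embed, 0.95 ± 0.06 (adjusted p = 1.3e-17), and ID4 4.93 and 4.58 CPM in flat culture and 15.9 and 13.6 CPM in Inject-Embed, 1.64 ± 0.15 (adjusted p = 1.3e-11), but ID2 did not pass (0.05 ± 0.06, adjusted p = 0.58). The inhibitory SMADs rose, SMAD6 from 30.3 and 29.1 CPM to 54.9 and 48.9 CPM, 0.81 ± 0.09 (adjusted p = 1.0e-09), and SMAD7 from 9.40 and 11.9 CPM to 31.6 and 24.8 CPM, 1.41 ± 0.12 (adjusted p = 1.6e-12). BAMBI, a decoy receptor, had 51.7 and 54.8 CPM in flat culture and 119 and 121 CPM in Inject-Embed, 1.17 ± 0.07 (adjusted p = 1.8e-17), and FST, follistatin, which traps activin, 25.4 and 23 CPM in flat culture and 49 and 52.4 CPM in Inject-Embed, 1.07 ± 0.11 (adjusted p = 8.7e-11). Members that fell included LTBP1, which holds latent TGF-beta in the matrix, -1.95 ± 0.34 (adjusted p = 1.3e-05), the ligand INHBE, -0.87 ± 0.13 (adjusted p = 5.5e-07), the receptor TGFBR2, -0.38 ± 0.06 (adjusted p = 5.6e-06), and SMAD3, -0.46 ± 0.06 (adjusted p = 4.9e-08).

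In the Wnt list 10 rose and 14 fell of 36 tested, and 9 fell without Inject-Embed replicate 1. The feedback targets LGR5, 40.1 and 36.2 CPM in flat culture and 54.3 and 53.4 CPM in Inject-Embed, 0.50 ± 0.10 (adjusted p = 0.00017), SP5, 0.84 ± 0.17 (adjusted p = 0.00018), and NKD1, 1.22 ± 0.25 (adjusted p = 0.00013), rose. AXIN2, another such target, did not pass (0.24 ± 0.16, adjusted p = 0.30), and DKK1, a secreted Wnt inhibitor, fell from 45.1 and 42.6 CPM to 25.5 and 26.6 CPM, -0.75 ± 0.11 (adjusted p = 5.5e-07). In the insulin-like growth factor system 12 fell and 2 rose of 22, and 6 fell without Inject-Embed replicate 2. INSR, the insulin receptor, was at 108 and 112 CPM in flat culture and 68.7 and 67.7 CPM in Inject-Embed, -0.69 ± 0.07 (adjusted p = 5.4e-11), and IRS1, which carries its signal, at 188 and 192 CPM in flat culture and 130.1 and 114 CPM in Inject-Embed, -0.64 ± 0.06 (adjusted p = 1.0e-11).

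Many inflammatory genes fell. Of 34 NF-kB targets, chemokines and cytokines 15 were lower and 2 higher, at a median of -0.54. CSF1, the macrophage growth factor, was at 8.40 and 9.36 CPM in flat culture and 2.50 and 2.30 CPM in Inject-Embed, -1.88 ± 0.20 (adjusted p = 5.7e-10). CXCL16, a membrane chemokine, had 49.9 and 62.7 CPM in flat culture and 22.9 and 19.9 CPM in Inject-Embed, -1.39 ± 0.11 (adjusted p = 8.1e-14), and CXCL5, a neutrophil attractant, 126 and 117 CPM in flat culture and 71.6 and 81.2 CPM in Inject-Embed, -0.67 ± 0.08 (adjusted p = 4.5e-09). NFKBIZ fell from 279 and 284 CPM to 179 and 184 CPM, -0.63 ± 0.05 (adjusted p = 3.7e-13). Of 26 immediate early genes 11 fell and 2 rose, at a median of -0.38. JUNB was at 20.7 and 25 CPM in flat culture and 11.6 and 10.6 CPM in Inject-Embed, -1.04 ± 0.13 (adjusted p = 3.4e-08), NR4A1 at 16.6 and 18.2 CPM in flat culture and 9.31 and 7.82 CPM in Inject-Embed, -1.02 ± 0.19 (adjusted p = 3.1e-05), and EGR1 at 41.3 and 44.4 CPM in flat culture and 25.1 and 31 CPM in Inject-Embed, -0.61 ± 0.10 (adjusted p = 5.9e-06). Interferon-stimulated genes gave 10 lower and 3 higher of 44, a share called of 29.5% that is near the 29.9% over all genes, at a median of -0.15, or -0.36 leaving out 9 members with so few counts in one group, and 5 fell without Inject-Embed replicate 1. Among protein-coding genes 36.8% were called, a larger share than in this list. The IFITM proteins block virus entry and share sequence. IFITM3 was at 83.4 and 88.3 CPM in flat culture and 15.9 and 13.9 CPM in Inject-Embed, -2.52 ± 0.08 (adjusted p = 1.3e-27), and IFITM2 at 3.47 and 4.64 CPM in flat culture and 0.681 and 0.425 CPM in Inject-Embed, -2.84 ± 0.33 (adjusted p = 2.9e-09). HERC5, the ligase for ISG15, had 13.9 and 13.9 CPM in flat culture and 5.07 and 6.97 CPM in Inject-Embed, -1.22 ± 0.16 (adjusted p = 6.7e-08). OAS1, an RNA sensor, rose from a low level, 2.33 and 1.82 CPM in flat culture and 4.54 and 4.17 CPM in Inject-Embed, 1.07 ± 0.25 (adjusted p = 0.00068).

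Among 1224 genes that the table assigns to a transcription factor family, 169 rose and 222 fell. These were 31.9% in all, near the 29.9% over all genes and under the 36.8% of protein-coding genes. Those of the bZIP family gave 3 higher and 19 lower of 47 tested (46.8% called). Those of the T-box family gave 3 higher of 9 (33.3% called, near the share over all genes). TBX4, a factor of limb and lung development, was at 8.53 and 5.86 CPM in flat culture and 41.2 and 38.9 CPM in Inject-Embed, 2.48 ± 0.15 (adjusted p = 3.6e-17), and its neighbour on chromosome 17, TBX2, at 30 and 32.4 CPM in flat culture and 107 and 105 CPM in Inject-Embed, 1.77 ± 0.09 (adjusted p = 1.1e-19). TBX3 rose by 0.69 ± 0.09 (adjusted p = 1.1e-07). TFEC was at 10.7 and 10 CPM in flat culture and 31.2 and 37 CPM in Inject-Embed, 1.71 ± 0.14 (adjusted p = 5.2e-13), and HOXD1 at 11.5 and 15.1 CPM in flat culture and 32.4 and 31.6 CPM in Inject-Embed, 1.27 ± 0.14 (adjusted p = 2.7e-09). The largest falls by the same rule were those of HES4, a Notch target, 11.5 and 12.5 CPM in flat culture and 3.71 and 3.74 CPM in Inject-Embed, -1.68 ± 0.19 (adjusted p = 8.2e-10), AFF3, 30.5 and 26.3 CPM in flat culture and 8.25 and 9.52 CPM in Inject-Embed, -1.68 ± 0.15 (adjusted p = 1.1e-12), RORA, a clock receptor, 22.8 and 19.9 CPM in flat culture and 7.79 and 7.99 CPM in Inject-Embed, -1.44 ± 0.16 (adjusted p = 1.5e-09), and PAX6, 13 and 17.4 CPM in flat culture and 5.75 and 6.46 CPM in Inject-Embed, -1.32 ± 0.18 (adjusted p = 1.4e-07). UNC5B, a netrin receptor, stood next to the metallothioneins and CES1 among protein-coding genes, at 4.93 and 5.86 CPM in flat culture and 37.5 and 38 CPM in Inject-Embed, 2.80 ± 0.16 (adjusted p = 2.8e-18).

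Among noncoding genes, TRHDE-AS1 was at 3.47 and 4.17 CPM in flat culture and 23.2 and 20.5 CPM in Inject-Embed, 2.51 ± 0.20 (adjusted p = 3.7e-14), and MIR210HG, the host of a hypoxia-induced microRNA, at 8.13 and 12.6 CPM in flat culture and 4.16 and 3.91 CPM in Inject-Embed, -1.36 ± 0.20 (adjusted p = 6.0e-07). FER1L4, a transcribed pseudogene, fell from 12.9 and 14.9 CPM to 3.03 and 2.89 CPM, -2.22 ± 0.20 (adjusted p = 1.5e-12). Where such a gene overlaps another on the opposite strand, the counts cannot be told apart, since the sources used here do not say whether counting used strand. The entries RNA5-8SN3 and MIR3648-1 lie in copies of the ribosomal RNA repeat on chromosome 21. RNA5-8SN3 was at 0.0666 and 0.135 CPM in flat culture and 30 and 20 CPM in Inject-Embed and MIR3648-1 at 0.200 and 0.202 CPM in flat culture and 42.2 and 24.9 CPM in Inject-Embed, both pairs without overlap. Log2 fold changes were 7.84 ± 0.44 (adjusted p = 9.4e-19) and 7.33 ± 0.34 (adjusted p = 7.6e-22). Ribosomal RNA is removed by poly-A selection and these copies are near-identical, so both values are uncertain. RNA5-8SN3 and MIR3648-1 had only 3 and 6 counts over the flat pair, so their SE understate the counting error. The 95% counting interval of the RNA5-8SN3 ratio ran from 85.6-fold to 1222.6-fold.

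Huh7 cells in Mix-Embed, spread through the gel at a higher seeding, were compared directly with Inject-Embed. Of all tested genes 22.9% differed between the gel cultures, 9.55% higher and 13.4% lower in Inject-Embed. This comparison uses the same Inject-Embed libraries as the one with flat culture, and the comparisons of the gel cultures with flat culture share their flat libraries, so their values are given side by side and not correlated.

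Hypoxia genes were lower in Inject-Embed than in Mix-Embed for 27 of 34 members, with 0 higher by edgeR and by DESeq2 and 1 higher at an unadjusted p under 0.05, and with medians over flat culture of -0.71 and 0.37. BNIP3 averaged 436 CPM in Mix-Embed, above the flat level, and the difference Inject-Embed minus Mix-Embed was -1.65 ± 0.05 (adjusted p = 1.7e-27). BHLHE40 averaged 149 CPM there, a difference of -2.06 ± 0.07 (adjusted p = 3.2e-25), and PDK1 158 CPM, -1.58 ± 0.08 (adjusted p = 2.0e-20). ARG1 and PLG, both lower than flat in Inject-Embed, stood at 63.7 and 39.4 CPM in Mix-Embed, differences of -2.49 ± 0.13 (adjusted p = 3.6e-19) and -1.89 ± 0.14 (adjusted p = 9.8e-14). Of 23 cholesterol synthesis genes 18 were lower in Inject-Embed, and FDFT1 differed by -0.34 ± 0.04 (adjusted p = 2.6e-08). Plasma carriers gave 18 lower and 1 higher.

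Ribosome biogenesis genes were higher in Inject-Embed for 45 of 55 and lower for 1, with medians over flat of 0.38 and -0.03. BOP1 averaged 112 CPM in Mix-Embed, a difference of 0.82 ± 0.07 (adjusted p = 1.6e-12). By contrast 51 of 60 cytosolic ribosomal protein genes were lower than in Mix-Embed. Heat shock genes were higher for 16 of 26 and lower for 2, HSP90AA1 by 0.72 ± 0.04 (adjusted p = 1.1e-19) and HSPH1, a partner of HSP70, by 0.80 ± 0.05 (adjusted p = 5.3e-16). Other genes did not pass this test between the gel cultures, CDH17 with a difference of -0.02 ± 0.07 (adjusted p = 0.90), ID1 of -0.00 ± 0.06 (adjusted p = 1.0), TFEC of -0.04 ± 0.13 (adjusted p = 0.90) and NR1I2 of -0.18 ± 0.22 (adjusted p = 0.64). CES1 and COL2A1 were both higher in Mix-Embed, -0.61 ± 0.16 (adjusted p = 0.0036) and -0.33 ± 0.04 (adjusted p = 1.2e-08).

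**Figure D5:**
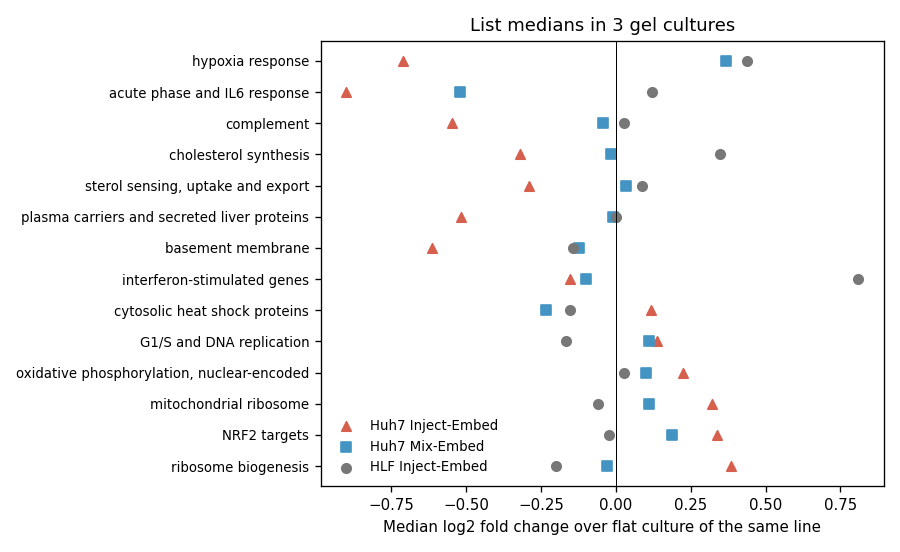
Median log2 fold change of the tested members of 14 lists over flat culture of the same line, for Huh7 Inject-Embed (red triangles), Huh7 Mix-Embed (blue squares) and HLF Inject-Embed (grey circles). The hypoxia median is -0.71 in Huh7 Inject-Embed and above 0 in both others, and the ribosome biogenesis median is above 0 in Huh7 Inject-Embed and below 0 in both others. The Huh7 cultures share their flat libraries.

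The response to Inject-Embed was set against that of HLF, another liver tumour line, by the difference between the lines' log2 fold changes. It passed the test for 24.8% of genes, 11.7% with a higher response in Huh7 and 13.1% with a lower one. The Huh7 response is itself one side of this difference. Where a gene is near 0 in HLF the difference rests on few counts.

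Hypoxia genes had a lower response in Huh7 for 22 of 34 members and a higher one for 0 by edgeR and by DESeq2 and for 1 at an unadjusted p under 0.05, and the HLF median was 0.44. PDK1 went from 11.7 to 28 CPM in HLF, a difference of responses of -2.42 ± 0.14 (adjusted p = 1.9e-18), and BNIP3 from 142 to 233 CPM, -1.52 ± 0.07 (adjusted p = 2.7e-21). VEGFA gave -0.97 ± 0.11 (adjusted p = 1.1e-09). Cholesterol synthesis had a lower response for 18 of 23, with an HLF median of 0.35, and INSIG1 gave -1.34 ± 0.08 (adjusted p = 1.9e-17). Interferon-stimulated genes had a median of 0.81 in HLF, and 22 of 44 had a lower response in Huh7 and 1 a higher one. IFITM3 went from 130.0 to 218 CPM in HLF, -3.27 ± 0.10 (adjusted p = 1.7e-28). NF-kB genes had a lower response for 16 of 34, with NFKBIZ at -1.89 ± 0.09 (adjusted p = 1.9e-20). Ribosome biogenesis had a higher response in Huh7 for 47 of 55 and a lower one for 1, with an HLF median of -0.20, and BOP1 gave 1.22 ± 0.10 (adjusted p = 4.3e-13). The G1/S list had a higher response for 24 of 46 and a lower one for 1, with CDC25A at 1.07 ± 0.11 (adjusted p = 2.1e-10). Among NRF2 targets the response was higher for 15 of 24 and lower for 2, and HMOX1, which went from 21.8 to 11.7 CPM in HLF, gave 1.79 ± 0.17 (adjusted p = 1.4e-11). Of the BMP targets, ID4 gave 0.01 ± 0.14 (adjusted p = 1.0) and ID3 0.52 ± 0.11 (adjusted p = 0.00014), and both rose in HLF by 1.63 and 1.27 on the log2 scale.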

How the data were processed

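Messenger RNA was selected on poly-T beads and sequenced, and 12 libraries fall into 6 groups of 2 by line and culture. The series' design text calls the replicates biological. Per the submitters' processing notes, the authors used FastQC, Trimmomatic, STAR 2.7.9a and featureCounts on GRCh38 to make the deposited counts per gene. For the order and settings of those steps, the annotation release and the use of strand, nothing is given in the sources used here. FPKM values deposited by the authors equal the count divided by gene length and library total, per the file headers and a check of 167453 values, and served an alternative only. All 12 sample columns of each table were used.

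The counts were fitted with edgeR 4.0.16 (R 4.3.3) by the quasi-likelihood test on all 12 libraries, with 1 term per group, TMM scaling and filterByExpr at a minimum count of 10. P-values were adjusted by Benjamini-Hochberg over 19342 genes, with a threshold of 0.05. The difference from Mix-Embed and the difference of responses between lines are contrasts of the same fit. With 2 libraries per group the fit had 6 residual degrees of freedom, and tests borrow the spread of all groups. Each gene's spread was also drawn toward that of other genes, with a median weight of 36.3 degrees of freedom. The common biological coefficient of variation was 4.59%. Libraries held 12325877 to 16041906 counts. Counting intervals and floors cover counting error only. The script was tested on simulated data.

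Alternatives were RLE scaling, library totals, DESeq2 1.42.0, other filters (none, or a minimum count of 50), fewer groups in the fit, a replicate block, limma 3.58.1 on log2(FPKM + 1) and log2(FPKM + 0.1), and each replicate of the compared groups left out. Named genes were taken from those called with groups apart and at least 10 CPM in the higher group. They were the 15 highest and 15 lowest protein-coding genes by log2 fold change and the protein-coding genes with the 10 largest gains and losses of CPM. Added to these were 5 noncoding genes and 8 transcription factor genes in each direction. From each described list up to 6 members with the smallest p, up to 3 that moved against the majority and members that define its role were eligible, and the text gives a selection. Some genes that met these rules are not reported here. The members and lists were chosen with earlier results of these data known. Promoters came from RefSeq on GRCh38.p14, and figures were drawn with matplotlib 3.10.9.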

Additional observations from a re-analysis of the deposited data

Results flagged for a closer look

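For 9 genes of those named, the lines moved in opposite directions under Inject-Embed, by at least 2-fold in each line. Each change was called in its own line by edgeR with adjusted p. The difference of the log2 fold changes, Huh7 minus HLF, passed the test. Genes with opposite but smaller changes in either line are not counted, such as IFITM3 (-2.52 in Huh7 and 0.75 in HLF). VCAN, versican, gave a difference of -3.40 ± 0.20 (SE, adjusted p = 1.5e-17), and PDK1, the pyruvate dehydrogenase kinase, -2.42 ± 0.14 (adjusted p = 1.9e-18). MIR210HG, at 2.66 and 2.52 CPM in flat HLF and 14.8 and 13.2 CPM in HLF Inject-Embed, gave -3.78 ± 0.28 (adjusted p = 1.8e-14).

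ABLIM3, an actin-binding LIM protein, gave -4.70 ± 0.29 (adjusted p = 6.8e-17), with 6.19 and 6.11 CPM in flat HLF and 17.4 and 11.9 CPM in HLF Inject-Embed. HMCN1, a matrix protein of the fibulin group, gave -4.0 ± 0.36 (adjusted p = 3.3e-12). JUNB gave -2.13 ± 0.17 (adjusted p = 2.3e-13) and HERC5 -2.40 ± 0.21 (adjusted p = 1.3e-12). C5 gave -3.20 ± 0.38 (adjusted p = 6.3e-09), though it was under 2 CPM in every HLF library. FST, follistatin, went the other way, 3.78 ± 0.33 (adjusted p = 2.6e-12), and fell in HLF from 3.28 and 3.09 CPM to 0.584 and 0.376 CPM.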

How the results depend on the processing

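Of 203 named genes that were called, 195 stayed called in the same direction under all 14 alternatives that gave a value, 8 lost the call under at least 1, and 0 reversed. Among the lost calls given above, HIF1A was not called under 7 alternatives. Genes at least 2-fold higher numbered 188 under a minimum count of 50, which tests fewer genes, and 90 under limma on log2(FPKM + 1). Genes at least 2-fold lower numbered 140 under limma on log2(FPKM + 1). The pseudocount compresses the change of low genes there. The limma fits took their spread from all 12 libraries, HLF included. AFP, APOA1 and ITIH2, which lost their calls only under log2(FPKM + 0.1), averaged 0.56, 0.09 and 0.09 CPM in flat HLF. The part of such low HLF values in these lost calls was not tested.

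Leaving out each replicate in turn gave 1892 to 2324 genes higher and 2326 to 2771 lower, 276 to 298 at least 2-fold higher and 612 to 669 at least 2-fold lower. For the contrasts with Mix-Embed and with the HLF response, only the Huh7 Inject-Embed replicates were left out in turn. Leaving out libraries of the other groups was not tested for these contrasts. The share of calls that were higher was 44.2%. The excess of lower calls turned into a small excess of higher ones under library totals (50.7%), with the Huh7 libraries alone (51.1%), with the 4 compared libraries alone (50.9%), and under limma on log2(FPKM + 1) (51.0%) and on log2(FPKM + 0.1) (51.1%).

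The replicate block gave 2497 genes higher and 3178 lower and changed no named call. Equal replicate numbers did not go with shared deviations (r = -0.06 between flat and Inject-Embed over 15645 genes), so the numbers were not taken to pair libraries.

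With 2 libraries per group, small changes rest on the spread pooled over all groups and shared between genes. Of 82 lists compiled, 51 were chosen for description and put through the alternatives. Of these 51, 12 had a count that moved by over 1.5 times under some alternative, named beside the list.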
